A study of Mus musculus with 904 samples.

Results

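Among 835 mouse brain nuclei that passed the depth filter, 163 passed a gate on reads of somatostatin (Sst) and Slc17a7. Of these, 56 also held reads of Nos1 or Chodl above the threshold used here. These 56 Nos1/Chodl Sst nuclei are described against the other 107 Sst nuclei. Kept nuclei had 1000 or more detected genes and 10000 or more reads in genes, and their counts were scaled to CPM (counts per 1e6 reads). Members were then selected on measured values: Sst at 100 CPM or more, Slc17a7 (which loads glutamate into vesicles of excitatory cells) under 20 CPM, and Nos1 plus Chodl at 100 CPM or more. A further 9 nuclei with Sst at 100 CPM or more had Slc17a7 at 20 CPM or more and were left out of both sides. Levels of Sst, Slc17a7, Nos1 and Chodl therefore describe the selection and are given without a test.

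All nuclei came from C57Bl/6J mice that received a PHP.eB adeno-associated virus at 5e11 vector genomes per mouse and were taken 3 to 4 weeks later. In every group the DLX2.0 enhancer, which is active in forebrain GABAergic neurons, drove a nuclear fluorescent reporter, and no group lacked the virus. Sample titles name 16 constructs: dTomato-H2B, SYFP2-10aa-H2Bmod-BC, SYFP2-P2A-3XFLAG-H2B with or without SIRLOIN, and SYFP2-H2B-BC carrying BORG, 3xBORG, 3xsmOPT, U7snRNAOPT, 3xU7snRNAOPT or U7snRNAOPT-3'box before or after the fusion. Nuclei were sorted singly for reporter fluorescence (the label says YFP also for the dTomato construct) and amplified with SMART-Seq v4, a full-length method without molecular identifiers. The labels place each nucleus in primary visual cortex, whereas the series text lists anterior lateral motor cortex and striatum as further sorted regions. No label names an animal, and the construct in the title and the vector named in the treatment label do not map one to one, so nuclei under 1 title are treated as 1 sample and p-values measure only the spread between titles.

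Somatostatin interneurons arise in the medial ganglionic eminence, and most of those in cortex inhibit the dendrites of nearby pyramidal cells. A rare group that expresses neuronal nitric oxide synthase (Nos1) together with chondrolectin (Chodl) and neuropeptide Y (Npy) is known for long-range axons and for activity in sleep. Striatum holds its own interneurons with Sst, Npy and Nos1, so these genes alone do not tell the regions apart.

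The stretch upstream of the transcription start is shown for Sst, which chose the nuclei, and for Npy and Scg2, the 2 genes with the smallest adjusted p in the comparison described further on. Each line gives 100 bases before the annotated start, 5′ to 3′ on the strand of the gene, from RefSeq on GRCm38.p6; capitals mark the cAMP response element TGACGTCA.
Sst, chr16:23890845-23890944, minus strand: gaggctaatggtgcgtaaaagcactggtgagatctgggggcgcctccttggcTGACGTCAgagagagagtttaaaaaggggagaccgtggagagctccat
Scg2, chr1:79440027-79440126, minus strand: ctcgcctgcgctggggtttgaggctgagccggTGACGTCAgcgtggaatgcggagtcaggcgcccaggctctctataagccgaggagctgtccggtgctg
Npy, chr6:49822610-49822709, plus strand: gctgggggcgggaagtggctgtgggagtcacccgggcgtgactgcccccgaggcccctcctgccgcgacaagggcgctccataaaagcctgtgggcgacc
The element, which reads the same on both strands, begins 48 bases before the start in Sst and 68 bases before it in Scg2, and these letters do not occur in the Npy window. Of 32851 promoter windows of 300 bases (250 before and 50 after the start), 1.79% hold it. Among genes with a window, it was found in 1 of 16 genes called higher in Nos1/Chodl nuclei (6.25%) and in 1 of 20 called lower (5%), beside 2.03% of all 27025 genes with a window. A match describes the letters only, and the 3 genes were chosen for display after their values were seen.

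The label rests on 4 markers, of which only Npy took no part in the selection. Every member had reads of Nos1, with a lowest level of 115 CPM, a median of 1632 CPM and a highest level of 4674 CPM. Chodl was found in 31 of 56 members, with a median of 337 CPM and a highest level of 1998 CPM, and all 56 met the threshold on Nos1 alone, 30 of them with Chodl at 100 CPM or more as well. Sst ran from 270 CPM through a median of 22304 CPM to 62839 CPM, against 102, 1891 and 24127 CPM in the other Sst nuclei. The other Sst nuclei thus reach down to the gate, which alone does not show that each of them is an Sst interneuron. Npy, the marker that could have failed, was read in all 56 members, and Chodl was detected in 55.4% of them.

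The threshold fell in a sparse stretch of the distribution. Just inside it lay 4 members with 115, 136, 266 and 331 CPM of Nos1 plus Chodl, and the next member stood at 599 CPM. Just outside lay nuclei with 92.5, 53.9, 47.3 and 29.5 CPM, and the remaining 103 other Sst nuclei had 0 reads of both genes. None of those 4 members had reads of Chodl or Tacr1, and their Npy levels of 1467, 3186, 4037 and 1113 CPM were low for the group. One of them held 270 CPM of Sst and 1155 CPM of Drd1, a dopamine receptor. They also held 9 to 16 of the 25 genes called lower in members, where the median member held 2.

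**Figure D1:**
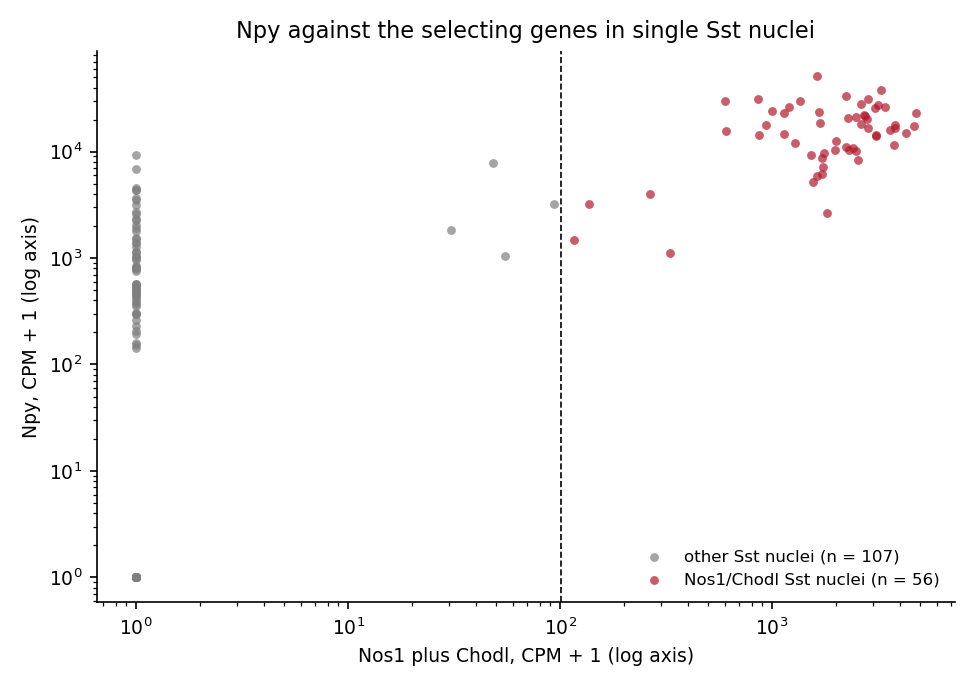
Npy against Nos1 plus Chodl in each of the 163 Sst nuclei, both in CPM + 1 on log axes; red points are the 56 Nos1/Chodl nuclei, grey points the 107 others, and the dashed line is the threshold of 100 CPM. The 4 members nearest to the line lie at or below 4037 CPM of Npy, and the median of the 56 members is 16205 CPM.

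Depth per nucleus was similar on both sides. Members had 155016 to 424260 reads (median 284409) and a median of 2760 genes, and the other Sst nuclei had 84601 to 508013 reads (median 240373) and a median of 3048 genes. Thinning each nucleus to 100000 reads kept all 56 members and 106 of 107 other Sst nuclei. No 2 Sst nuclei correlated above 0.704 (Pearson's r across genes of log CPM), so none was treated as a repeat of another library.

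Nos1/Chodl nuclei made up 34.4% of Sst nuclei (exact 95% interval 27.1% to 42.2%, counting error only) and 6.71% of all kept nuclei. Their share differed between the 3 library pools named in the sample descriptions. It was 35 of 68 Sst nuclei in pool S40325 (51.5%, 39% to 63.8%), 19 of 83 in S40327 (22.9%, 14.4% to 33.4%) and 2 of 12 in S40317 (16.7%, 2.09% to 48.4%). Both S40317 members were among the 4 nuclei just inside the threshold. Constructs were spread unevenly over the pools, so pool values are given beside the results below.

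**Figure D2:**
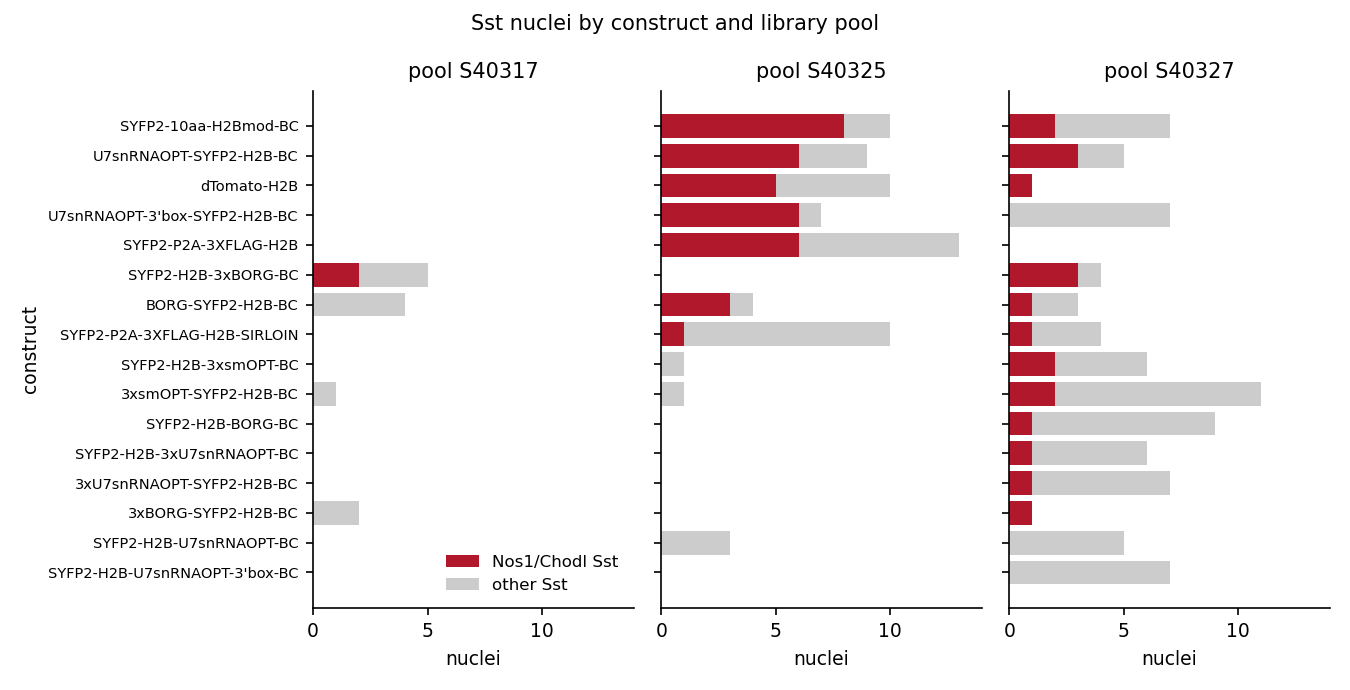
Number of Sst nuclei (x axis) by construct (y axis) in each of the 3 library pools; red bars are Nos1/Chodl nuclei and grey bars the other Sst nuclei stacked on them. The 35 members in S40325 lie in the bars of 7 constructs, while S40327 held 19 members among 83 Sst nuclei.

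Across constructs the count ran from 0 members (SYFP2-H2B-U7snRNAOPT-BC with 8 Sst nuclei and SYFP2-H2B-U7snRNAOPT-3'box-BC with 7) to 10 of 17 Sst nuclei under SYFP2-10aa-H2Bmod-BC and 9 of 14 under U7snRNAOPT-SYFP2-H2B-BC. A count of 0 in 8 nuclei allows a share of up to 36.9% by the exact 95% interval. For the 6 elements placed on either side of the fusion, members were 34.4% ± 18.6 of Sst nuclei (SD, n = 6 elements) with the element before it and 18.7% ± 21.1 with the element after it. The share was higher after the fusion for 3 of 6 elements, and the mean difference of -15.8 percentage points was not distinguishable from 0 (exact paired permutation test, two-sided, p = 0.312, where 0.0312 is the smallest p that 6 pairs allow). A difference between the positions was not detectable with these numbers of nuclei per construct, which ran from 3 to 14 Sst nuclei.

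To find what sets Nos1/Chodl nuclei apart from other Sst nuclei in genes that took no part in the selection, reads were summed per construct on each side. The 10 constructs that held 2 or more nuclei of each kind were compared with the quasi-likelihood test of edgeR, with the construct as a block. A sum held 2 to 10 members or 4 to 12 other Sst nuclei, and means over constructs give each sum the same weight. Member sums of 3xsmOPT-SYFP2-H2B-BC, SYFP2-H2B-3xsmOPT-BC and SYFP2-P2A-3XFLAG-H2B-SIRLOIN rest on 2 nuclei each, so a level of 0 there rests on few nuclei. Of 7553 genes tested, 45 were called at a Benjamini-Hochberg adjusted p under 0.05, which is 0.596% of the genes. Members were higher for 20 of them (0.265%) and lower for 25 (0.331%), and 655 genes had an unadjusted p under 0.05. The 2 smallest adjusted p belonged to genes of peptide signalling, and receptors, ion channels and adhesion proteins were among the others. The fit's median log2 fold change over all tested genes was -0.81, and 1956 of the 7553 were above 0. Counts for gene lists further on are to be read beside these values and the shares of called genes. Since 19 of the 25 lower genes had reads in under 10% of members and 10 of the 20 higher genes in under 10% of other Sst nuclei, their fitted fold changes are driven by constructs at 0 reads. Mean CPM over the 10 constructs is therefore given first, with the fold between these means. Such a sum cannot tell fewer nuclei with a transcript from less of it per nucleus, so shares of nuclei with reads are given beside it.

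The clearest difference was in Npy (chr6:49822710-49829507, GENCODE M21 on mm10), which encodes neuropeptide Y, an inhibitory peptide stored in dense core vesicles. Construct levels in members ran from 5634 CPM through a median of 18267 CPM to 37537 CPM, and in other Sst nuclei from 97.8 through 691 to 3483 CPM. The 2 sides did not overlap in any of the 10 constructs. The means were 17574 ± 8683 CPM and 973 ± 972 CPM (SD, n = 10 constructs), an 18.1-fold difference, with an edgeR log2 fold change of 4.62 ± 0.38 (SE, adjusted p = 3.98e-09). Npy was read in all 56 members and in 61 of 107 other Sst nuclei, and its median in members was 17928 CPM in pool S40325 and 12051 CPM in S40327, against 263 and 325 CPM in the other Sst nuclei of those pools.

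A pair of peptide release genes was also called higher. Scg2 (secretogranin II, a granin that packs dense core vesicles) stood at 2964 ± 1280 CPM in members and 263 ± 141 CPM in other Sst nuclei, an 11.3-fold difference (edgeR log2 3.48 ± 0.35, adjusted p = 1.88e-07), and was higher in 10 of 10 constructs. Pam, the enzyme that amidates the end of peptides such as neuropeptide Y, stood at 744 ± 432 against 186 ± 94 CPM, a 4.01-fold difference (edgeR log2 1.90 ± 0.45, adjusted p = 0.038). Of 18 tested genes of peptide processing and dense core vesicles, these 2 were called, both higher, and 12 were above 0. Among all 7553 tested genes 0.596% were called, 0.265% higher, and 1956 were above 0. The list's median log2 fold change was 0.48, beside -0.81 for all genes. Prohormone convertase 2 (Pcsk2), carboxypeptidase E (Cpe) and chromogranins A and B were tested and not called.

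Of the 24 genes on the neuropeptide list, 9 were tested and 2 were called, both higher, beside 0.265% of all tested genes called higher. The first was Npy. The second was Nxph2, a secreted ligand of neurexins, at 404 ± 224 against 13.3 ± 23.7 CPM (30.3-fold between means, edgeR log2 7.64 ± 1.24, adjusted p = 0.000558). Cort, the gene of cortistatin, was read in 6 of 56 members and 28 of 107 other Sst nuclei. Pdyn and Cck, which encode dynorphin and cholecystokinin, had unadjusted p of 0.0111 and 0.00598 in edgeR and adjusted p of 0.319 and 0.232. No read of Crh, Vip, Tac2 or Nts was found in any member. Penk, the enkephalin gene, was read in 44.6% of members and 24.3% of other Sst nuclei, while mean construct levels lay the other way, at 171 ± 130 and 1000 ± 1478 CPM.

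Peptide receptors were also compared. Tacr1 (chr6:82402334-82560104), the neurokinin 1 receptor for substance P, ran from 33.6 through 548 to 816 CPM over constructs in members and from 0 through 0 to 25.7 CPM in other Sst nuclei, with no overlap. Its means were 529 ± 229 and 3.90 ± 8.43 CPM, a 136-fold difference (edgeR log2 9.89 ± 1.28, adjusted p = 1.77e-05). Reads of Tacr1 were found in 39 of 56 members and 3 of 107 other Sst nuclei (67.9% and 1.89% after thinning to 100000 reads), 6.82% of nuclei in the striatal projection gate and 0% of nuclei in the excitatory gate. Of 31 listed neuropeptide receptors 3 passed the filter on low counts, and of these Tacr1 was called, beside 0.596% of all tested genes.

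The filter on low counts asks for reads in about as many summed samples as 1 side holds. Without the filter, 17699 genes were tested and 120 called, among them 21 that the filter had removed, 10 higher and 11 lower. These genes are named after their values were seen. Hhip, the hedgehog-interacting protein, was called at an adjusted p of 2.45e-47 in this edgeR fit, where other Sst nuclei held 0 reads of it. Otof, Npy2r and Galr1, also at 0 reads on that side, had adjusted p of 0.000148 to 0.000629. The p of Hhip is therefore not ranked beside those of the main fit. Among all nuclei Hhip was read in 42 of 56 members and in 1 of 107 other Sst nuclei, which held 1219 CPM. Its mean over nuclei was 977 CPM in members and 11.4 CPM in other Sst nuclei. That 1 nucleus, with 266 reads of Hhip, lies outside the 10 constructs of the fit. Within those constructs Hhip was at 917 ± 551 CPM in members and at 0 reads in other Sst nuclei. Setting 3 reads over that side gives a 5602-fold difference. It is not a lower bound, since without molecular identifiers 1 nucleus can hold far more than 3 reads.

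The receptor genes Npy2r and Galr1 had no read in any other Sst nucleus. Npy2r, the Y2 receptor that neuropeptide Y activates on nerve terminals, was read in 23 of 56 members and in 0 of 107 other Sst nuclei, and was at least 952-fold higher (143 ± 149 CPM, adjusted p = 0.000317 in the edgeR fit without the filter). Galr1, a galanin receptor, was read in 28 of 56 members and in 0 of 107. Its level in members was 119 ± 104 CPM (adjusted p = 0.000629 in the same edgeR fit), 911-fold higher on that setting. Both genes were found in pools S40325 and S40327 and in neither member of S40317. Otof, the calcium sensor otoferlin, was called in the same way (115 ± 82.8 CPM, 766-fold on that setting).

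The remaining genes called higher hold signalling and membrane proteins. Fxyd6, a regulator of the sodium pump, ran from 221 through 1364 to 2276 CPM in members and from 0 through 0 to 206 CPM in other Sst nuclei, a 44.2-fold difference between means (edgeR adjusted p = 1.79e-05). Nnat (neuronatin, a small membrane protein of the endoplasmic reticulum) stood at 500.5 ± 311 against 7.52 ± 10.5 CPM, 66.5-fold. Pcp4, which modulates calmodulin, stood at 1544 ± 640 against 285 ± 203 CPM, 5.42-fold. Of these, Fxyd6 and Nnat did not overlap between sides.

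Among ion channels and transmitter receptors, the sodium channel Scn9a (Nav1.7) stood at 388 ± 209 against 35 ± 43.1 CPM. The cation channel Trpc7 stood at 126 ± 102 against 8.69 ± 27.5 CPM. Both were called higher (edgeR adjusted p = 0.038 and 0.00928). They were 2 of 26 tested sodium and calcium channel genes, beside 0.265% of all tested genes called higher. GABA receptor subunits changed in both directions. Gabrg1 (the gamma 1 subunit) rose to 229 ± 149 CPM from 4.43 ± 10.6 CPM without overlap of constructs (adjusted p = 0.000208). Over all nuclei its mean was 236 CPM in members and 29 CPM in other Sst nuclei. Among those 107 it was read in 4 and reached 1519 CPM. In pools S40325 and S40327 alone it was not called (edgeR adjusted p = 0.121 and 0.592). Gabrd (the delta subunit of extrasynaptic receptors) fell to 3.99 ± 12.6 CPM from 197 ± 143 CPM (adjusted p = 0.000156), and Gabrg3 fell to 10.1 ± 21.6 CPM from 126 ± 72.1 CPM (adjusted p = 0.038). Of 31 tested potassium, HCN and leak channel genes, 0 were called by edgeR, with 5 at an unadjusted p under 0.05. Kcnq3, a subunit of the M-current channel, came nearest (adjusted p = 0.0521).

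Col25a1 (a transmembrane collagen) at 1180 ± 525 against 132 ± 111 CPM, Plcb4 (phospholipase C beta 4) at 458 ± 193 against 81.3 ± 60.2 CPM and Ache (acetylcholinesterase) at 713 ± 222 against 200 ± 83.8 CPM were also called higher, each without overlap between sides. The other genes called higher were Igsf21 (a synaptic adhesion protein), Ptprd (a receptor phosphatase), Saraf (a regulator of calcium entry), 1 of the 2 entries named St6galnac2 (a sialyltransferase), 9330158H04Rik and C130073E24Rik. Counts of the 2 St6galnac2 entries may be split by read assignment, which makes the level of either uncertain. Of the 20 genes called higher, 15 were higher in 10 of 10 constructs and 9 did not overlap between sides, against 10 of all 7553 tested genes.

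**Figure D3:**
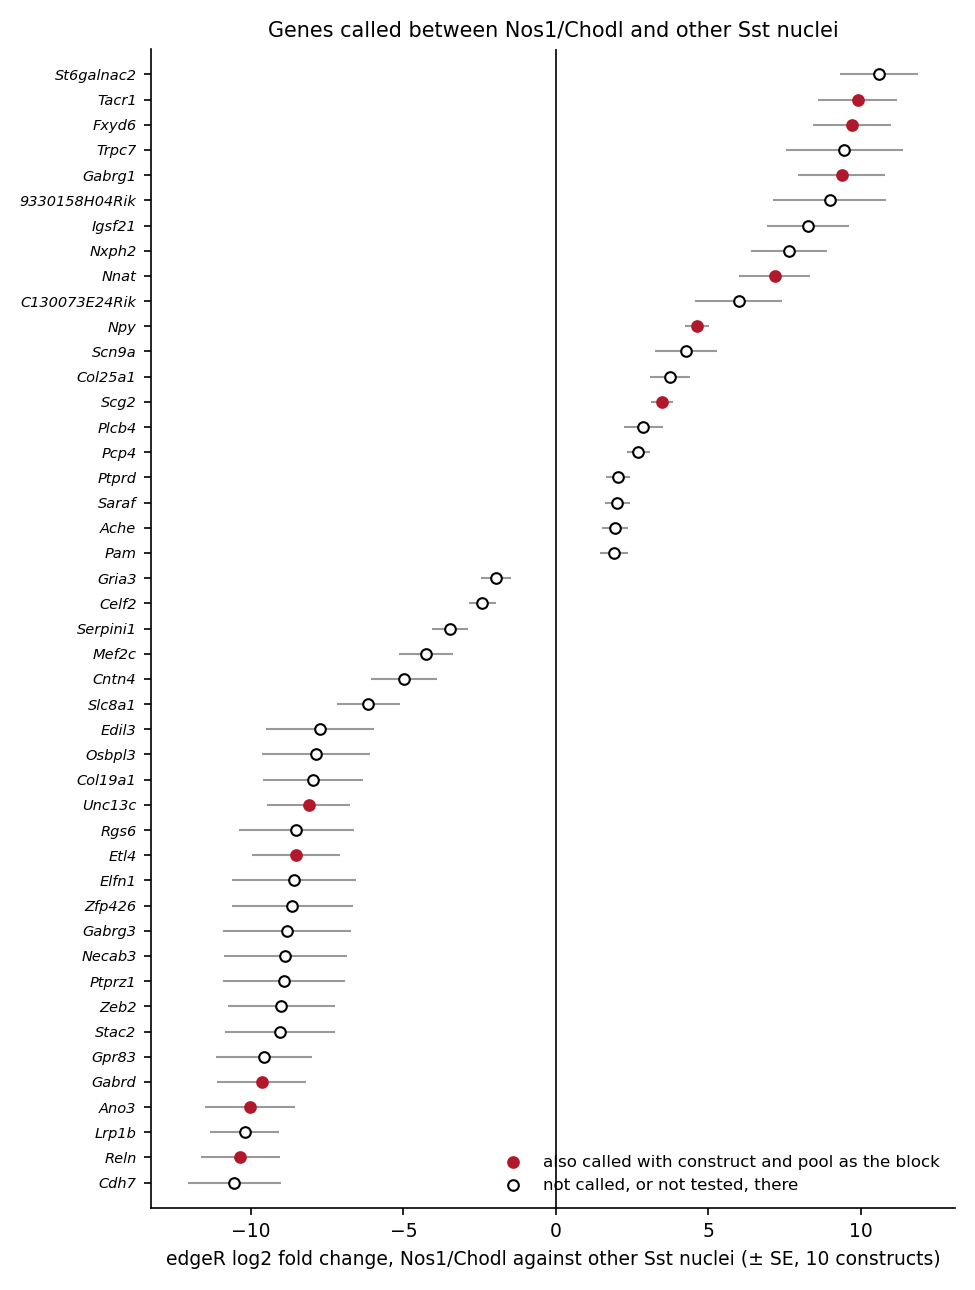
edgeR log2 fold change (x axis, ± SE, 10 constructs) of the 45 called genes (y axis), Nos1/Chodl against other Sst nuclei; filled points are genes also called when construct and pool together form the block. The 11 filled genes include Npy, Scg2, Tacr1 and Fxyd6 among the higher ones and Reln, Ano3, Gabrd, Unc13c and Etl4 among the lower ones.

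Genes called lower include genes listed as markers of other cortical Sst types and adhesion proteins. With 3 or more nuclei per construct and side, which left 7 constructs, 7 genes were called lower instead of 25. Reln, the secreted protein reelin, was at 0 CPM in members of 9 of 10 constructs and at 370 CPM in the other one, against 118 through 269 to 652 CPM in other Sst nuclei (edgeR adjusted p = 1.01e-05). The construct with reads was SYFP2-H2B-3xBORG-BC, and both members with Reln were the S40317 nuclei just inside the threshold. In S40325 and S40327 Reln was read in 0 of 35 and 0 of 19 members and in 14 of 33 and 28 of 64 other Sst nuclei. Elfn1, a postsynaptic protein that shapes excitatory input onto Sst dendrites, fell to 12.5 ± 39.6 CPM from 68.6 ± 52.4 CPM, and Unc13c, a vesicle priming factor, fell to 25.7 ± 47 CPM from 499 ± 481 CPM. Reln, Elfn1 and Unc13c were 3 of 13 tested genes listed as markers of other cortical Sst types, with 0 called higher, beside 0.331% of all tested genes called lower. The list's median log2 fold change was -2.61, beside -0.81 for all tested genes. Its median log2 ratio of mean CPM was -1.16, beside -0.24. Reln and Unc13c were not particular to Sst nuclei. They were read in 49.4% and 71.6% of the striatal projection gate and in 45.8% and 54.2% of other Sst nuclei. Elfn1 was read in 1.7% and 32.7%. Calb1 (calbindin), which marks many of those types, was lower in 10 of 10 constructs (edgeR log2 -2.36 ± 0.72) and missed the threshold (adjusted p = 0.159).

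Lrp1b, a receptor of the low density lipoprotein family, was at 3.01 ± 9.31 CPM in members and 383 ± 254 CPM in other Sst nuclei (127-fold, edgeR adjusted p = 1.4e-06), and the cadherin Cdh7 at 6.37 ± 20.1 against 248 ± 191 CPM. Cdh7 and the contactin Cntn4 were 2 of 39 tested adhesion genes, both lower, beside 0.331% of all tested genes called lower. Of 22 tested axon guidance genes 0 were called by edgeR, with 2, Sema3a and Epha6, at an unadjusted p under 0.05. Ano3, of the anoctamin family, was read in 7.14% of members and 58.9% of other Sst nuclei. The sodium-calcium exchanger Slc8a1, the protease inhibitor Serpini1 (neuroserpin) and the RNA-binding protein Celf2 were lower too, at 20.2, 190 and 244 CPM against 321, 1786 and 1029 CPM.

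Among glutamate receptors Gria3, an AMPA receptor subunit, was lower at 182 ± 146 against 591 ± 177 CPM (edgeR adjusted p = 0.0485). Of 21 tested glutamate receptor genes 1 was called and 11 had an unadjusted p under 0.05, with 2 above 0 and a median of -1.41. Over all 7553 tested genes, 45 were called, 655 had an unadjusted p under 0.05, 1956 were above 0 and the median was -0.81. The median log2 ratio of mean CPM was -0.94 for the list and -0.24 for all tested genes. The level summed over the 30 listed genes had a median of 3810 CPM per nucleus in members and 7793 CPM in other Sst nuclei. Genes called lower were long, with a median span of 277748 bases, against 107226 for those called higher and 30050 for all tested genes. The part of gene length in these calls was not tested.

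**Figure D4:**
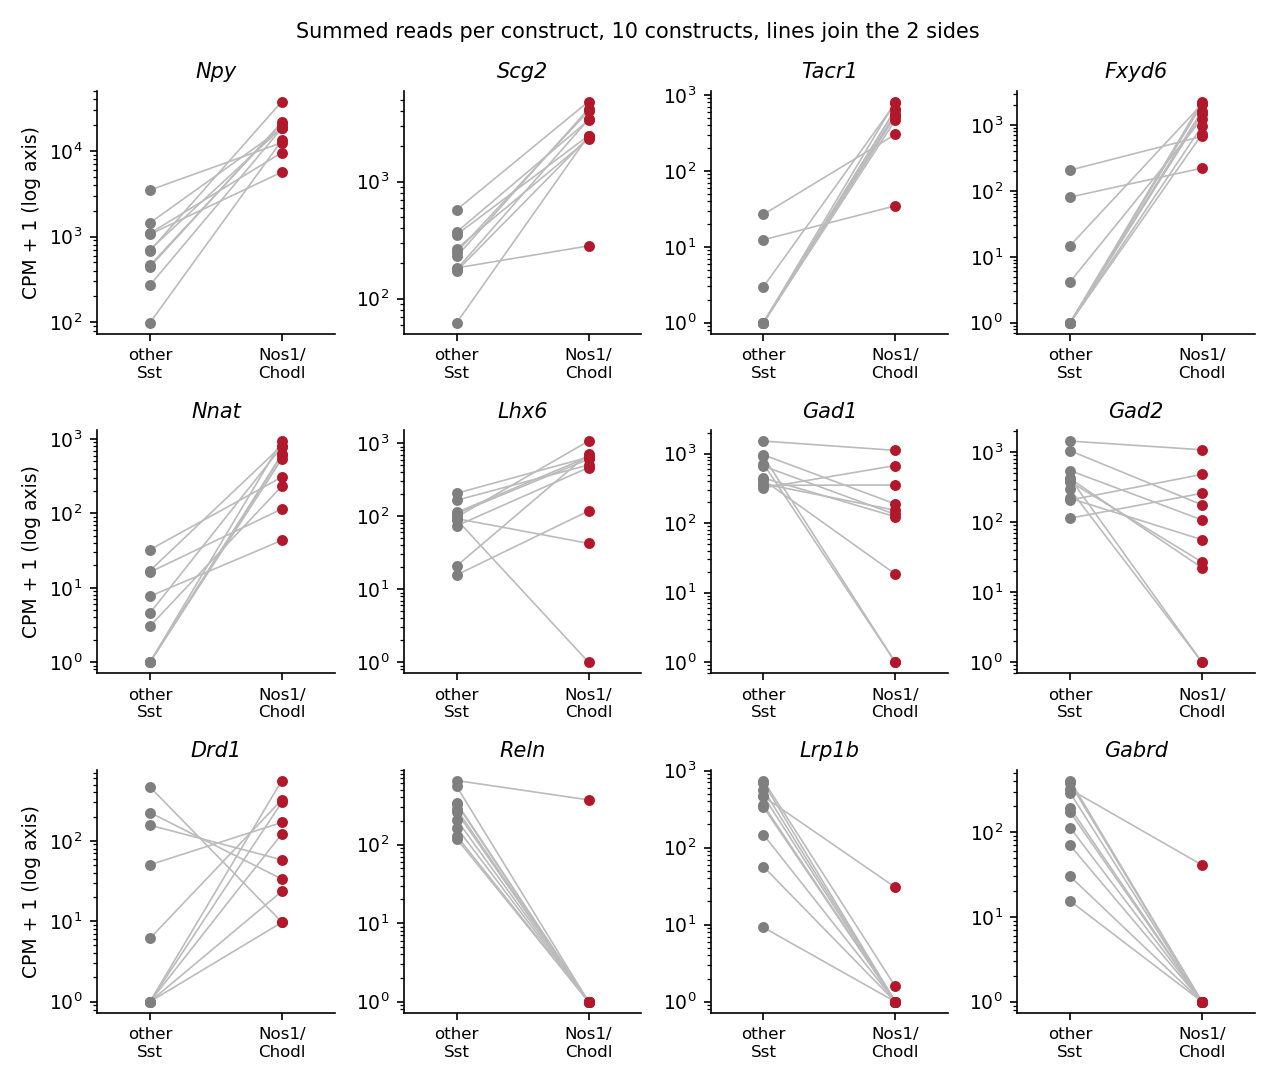
Level of 12 genes (CPM + 1, log axis) in summed reads of each of 10 constructs, other Sst nuclei on the left and Nos1/Chodl nuclei on the right of each panel, with a line joining both sides of a construct. Npy, Tacr1, Fxyd6 and Nnat do not overlap between sides, Gad1, Gad2 and Drd1 do, and Reln has reads in members of 1 construct.

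Genes of the nitric oxide pathway other than Nos1 were not called: of 19 tested, 0 passed in edgeR, with 3 at an unadjusted p under 0.05. Slc7a3, a transporter of arginine, the substrate of nitric oxide synthase, was read in 57.1% of members and 14% of other Sst nuclei (262 ± 177 against 28 ± 35.7 CPM, higher in 10 of 10 constructs, adjusted p = 0.0816). Cygb (cytoglobin, a haem protein that consumes nitric oxide) was read in 76.8% and 15.9% (208 ± 108 against 22.5 ± 17.4 CPM, 10 of 10 constructs, adjusted p = 0.138). Construct levels of Cygb did not overlap between sides, at 77.4 CPM or more in members and 63.6 CPM or less in other Sst nuclei. Of all 7553 tested genes, 10 were higher in members without overlap of constructs. Single nuclei did overlap, since Cygb had no read in part of the members. The guanylate cyclase subunits Gucy1a1 and Gucy1b1, which sense nitric oxide, were read in 37.5% and 33.9% of members and 14% and 34.6% of other Sst nuclei. The adaptor Nos1ap was read in 28.6% and 36.4%.

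The muscarinic M2 receptor Chrm2 was read in 28 of 56 members and 9 of 107 other Sst nuclei and was higher in 10 of 10 constructs, with an edgeR adjusted p of 0.103. Htr1f, a serotonin receptor, was read in 3 members and 26 other Sst nuclei (adjusted p = 0.354). Of 7 tested monoamine, acetylcholine, adenosine and cannabinoid receptor genes, 0 were called and 2 had an unadjusted p under 0.05.

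The genes of GABA synthesis and release were read in a smaller share of members than of other Sst nuclei. Gad1, which makes GABA, was read in 48.2% of members and 71% of other Sst nuclei, and Gad2 in 35.7% and 71%. Construct means were 275 ± 357 against 665 ± 378 CPM for Gad1 and 221 ± 338 against 509 ± 419 CPM for Gad2, each lower in 8 of 10 constructs and not called by edgeR (adjusted p = 0.298 and 0.227). The vesicular GABA transporter Slc32a1 was read in 28.6% and 48.6%. Of the 20 tested genes of GABAergic and medial ganglionic eminence identity, 0 were called higher and 2 lower, Elfn1 and the transcription factor Zeb2. Over all tested genes 0.265% were called higher and 0.331% lower. The list's median log2 fold change was -2.01, beside -0.81 for all tested genes. Its median log2 ratio of mean CPM was -1.24, beside -0.24. Zeb2, which guides the migration of cortical interneurons, was read in 5.36% of members and 60.7% of other Sst nuclei (edgeR adjusted p = 0.00512).

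Transcription factors of the medial ganglionic eminence lineage were read in most members for Lhx6 and Sox6 and in fewer for Satb1. Lhx6 was read in 40 of 56 members and 44 of 107 other Sst nuclei, with construct means of 482 ± 339 and 97.6 ± 57.9 CPM. It was higher in 8 of 10 constructs and not called (edgeR log2 2.05 ± 0.80, adjusted p = 0.354). Its log2 fold change was -3.79 in the 4 constructs of pool S40327 alone and -1.64 without pool S40325. Shares of nuclei with Lhx6 reads ran the other way in S40327, at 12 of 19 members and 23 of 64 other Sst nuclei. In S40325 they were 26 of 35 and 13 of 33. Sox6, which acts downstream of Lhx6, was read in 89.3% and 68.2%. Satb1, a factor that matures cortical Sst cells, was read in 37.5% and 57%, with 13 of 35 members and 12 of 33 other Sst nuclei in pool S40325, and 6 of 19 and 40 of 64 in S40327. Nkx2-1, which cortical interneurons switch off and striatal ones keep, was read in 2 members, and Lhx8, a factor of subpallial neurons, in 4 members.

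The question whether these nuclei came from cortex or striatum bears on the label, since the series text names both regions. Transcripts were therefore set beside 3 reference gates from the same libraries, described without a test: 97 Pvalb nuclei (Pvalb at 100 CPM or more, Sst under 100), 176 striatal projection nuclei (Drd1 plus Drd2 at 100 CPM or more, Sst under 100) and 149 excitatory nuclei (Slc17a7 at 100 CPM or more, Sst under 100). The first 2 gates also asked for Slc17a7 under 20 CPM, and 10 nuclei met both. Drd1, the dopamine D1 receptor, was read in 44.6% of members, 7.48% of other Sst nuclei, 21.6% of the Pvalb gate and 67% of the striatal gate, where it served for selection. Rarb, a retinoic acid receptor abundant in striatum, was read in 41.1%, 7.48%, 7.22% and 42.6%. After thinning to 100000 reads the Drd1 shares in members and other Sst nuclei were 41.1% and 7.55%. In edgeR Drd1 was not called (higher in 7 of 10 constructs, log2 4.82 ± 2.06, adjusted p = 0.465).

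Other transcripts of striatal projection neurons were compared with the same gates. No gate was set on striatal Sst interneurons, so these shares compare members with projection neurons only. Whether such transcripts separate cortical from striatal interneurons was not tested. Meis2 and Foxp2, transcription factors of striatal projection neurons, were each read in 1 member (1.79%) but in 84.7% and 50.0% of the striatal gate. Ppp1r1b (DARPP-32), a phosphatase inhibitor, was read in 25% of members, 19.6% of other Sst nuclei and 87.5% of the striatal gate, and Drd2 in 2 members at no more than 6.84 CPM. Adora2a, an adenosine receptor, was read in 1 member. Of 12 tested genes on the striatal projection list, 0 were called by edgeR and 3 had an unadjusted p under 0.05, with a median of -0.68. Its summed level per nucleus ran from 261 through 1314 to 15071 CPM in members and from 0 through 850 to 22186 CPM in other Sst nuclei, and of 22 genes only Gpr6 was at 0 in members.

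Within members Rarb was read in 15 of 25 nuclei with Drd1 and in 8 of 31 without it. Ppp1r1b was read in 7 nuclei of each kind, and Tacr1 in 19 and 20. Drd1 was read in 15 of 34 members whose combination of title, treatment and pool also held a striatal projection nucleus, and in 10 of 22 members whose combination held none (44.1% and 45.5%), and Rarb in 47.1% and 31.8%. Split by excitatory nuclei instead, Drd1 was read in 7 of 22 members whose combination held one (31.8%) and in 18 of 34 whose combination held none (52.9%), and Rarb in 31.8% and 47.1%. By pool, Drd1 was read in 17 of 35 members of S40325 and 8 of 19 of S40327.

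Of 20 listed cortical excitatory genes, 10 were at 0 in all members. Neurod2, a transcription factor of excitatory neurons, was read in 1 member and in 59.1% of the excitatory gate. Other genes of the list were read in more members: Camk2a, a calcium-dependent kinase subunit, in 26.8% of members and 42.1% of other Sst nuclei, and Mical2 in 32.1% and 68.2%. The summed level of the list per nucleus ran from 0 through 223 to 1704 CPM in members and from 0 through 451 to 3106 CPM in other Sst nuclei. Of the transcripts of striatal and subpallial interneurons, 10 of 14 listed genes, among them Chat and Th, which mark cholinergic and Th interneurons, were at 0 in all members, and no gene of that list had enough reads for a test. Adarb2, of interneurons from the caudal ganglionic eminence, was read in 0 members and Pvalb in 1. Of 20 excitatory genes 4, of 15 Pvalb interneuron markers 5, of 19 markers of Lamp5, Sncg and Vip cells 3, of 13 astrocyte markers 2 and of 16 oligodendrocyte markers 3 were tested. Among these Reln, counted also as a Lamp5 marker, was the only gene called, and no marker of microglia or vessels could be tested. The summed level per nucleus reached 1899 CPM for astrocyte genes and 9201 CPM for oligodendrocyte genes in members, and 25197 and 70688 CPM in other Sst nuclei. The part of glial RNA in the calls was not tested.

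Of the 78 combinations of title, treatment and pool, 23 held a member and 15 held both a member and another Sst nucleus. The 23 with a member held 35 of the 107 other Sst nuclei (32.7%). The 51 with an other Sst nucleus held 35 of the 56 members (62.5%). The construct block of the gene comparison therefore does not match the 2 sides by combination. Combinations that held striatal projection nuclei but no excitatory ones contributed 19 of 56 members (33.9%) and 13 of 107 other Sst nuclei (12.1%). Those that held excitatory but no striatal projection nuclei contributed 7 (12.5%) and 28 (26.2%), those with both 15 and 55, and those with neither 15 and 11. The last kind includes the combination whose 7 kept nuclei were all members. Over the 16 constructs, the share of Sst nuclei that were members had a correlation not distinguishable from 0 with the striatal projection share of the nuclei outside the Sst gate (Pearson's r = 0.16, permutation p = 0.55, adjusted over 2 relations 0.55; Spearman's rho = 0.05, p = 0.86; r = -0.25 without the 2 constructs farthest from the median). Within S40325 (10 constructs) r was 0.01 (permutation p = 0.996) and within S40327 (15 constructs) 0.35 (permutation p = 0.214). For the excitatory share r was 0.37 (permutation p = 0.171, adjusted 0.341; rho = 0.31, p = 0.242; r = 0.02 without 2 constructs), with 0.45 and -0.20 within those pools. These relations were chosen after the data were seen. The part of region in any difference between the Sst classes was not tested, since no label other than visual cortex marks a nucleus.

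**Figure D5:**
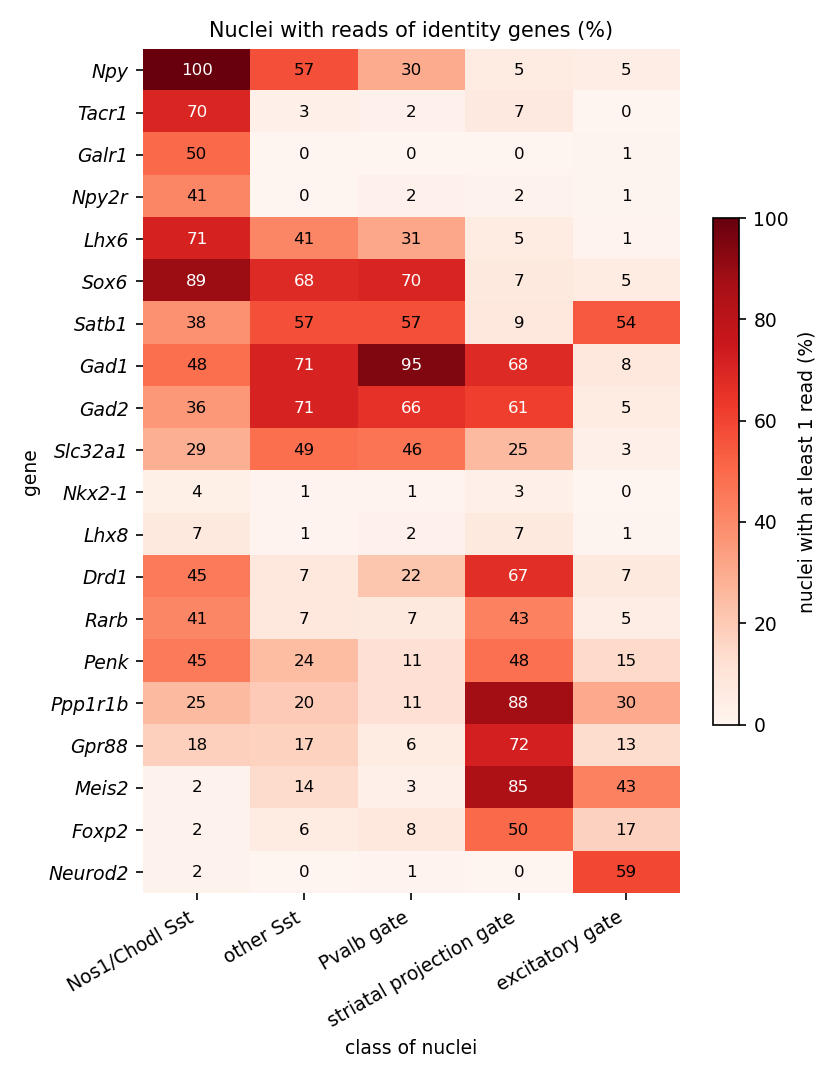
Percentage of nuclei with at least 1 read of each gene (y axis) in the 56 Nos1/Chodl nuclei, the 107 other Sst nuclei and the 3 reference gates (x axis); darker red is a larger share. Drd1 and Rarb are at 45% and 41% in members and at 67% and 43% in the striatal projection gate, and Meis2 and Foxp2 at 2% in members.

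Members with and without Chodl reads are described side by side, without a test. Npy had a median of 20134 CPM in the 31 members with Chodl reads and 10707 CPM in the 25 without, and Nos1 had medians of 1634 and 1630 CPM. Tacr1 was read in 24 of 31 and 15 of 25, Fxyd6 in 30 of 31 and 20 of 25, and Lhx6 in 71% and 72%. Drd1 and Rarb were each read in 17 of 31 members with Chodl, and in 8 and 6 of 25 without. Of the 20 genes called higher, a member held reads of a median of 16 (5 to 20) and another Sst nucleus of 5 (1 to 16). Of the 25 called lower, a member held a median of 2 (0 to 16) and another Sst nucleus 13 (1 to 24).

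Because the share of members moved with the pool, the calls were repeated with construct and pool together as the block, an alternative added after seeing the data. With 5722 genes tested in 9 such combinations, 12 genes were called, 11 of them among the 45: Npy, Scg2, Tacr1, Fxyd6, Nnat and Gabrg1 higher, and Reln, Ano3, Gabrd, Unc13c and Etl4 lower. In 4 constructs of S40325 alone 35 genes were called and in 4 of S40327 alone 15, and 8 of the 45 were called in both: Npy, Scg2, Tacr1, Fxyd6, Pcp4 and St6galnac2 higher, and Ano3 and Unc13c lower. All of the 45 that could be tested in these 3 fits kept their direction. The difference between the 2 pools in the member effect was called by edgeR for 0 of 5586 genes, while 273 had an unadjusted p below 0.05. Without nuclei holding Drd1 plus Drd2 at 100 CPM or more (19 members and 7 other Sst nuclei) 30 genes were called in 7 constructs, 23 of them among the 45.

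RNA of mitochondria and of activity-regulated genes was also compared. All 5 tested mitochondrially encoded transcripts were lower with an unadjusted p under 0.05, 0 were called, and their median was -3.53. The level summed over 13 such genes per nucleus did not run the same way, with a median of 6.93 CPM in members and 4.55 CPM in other Sst nuclei. Levels of mt-Nd1 per construct ran from 0 through 4.26 to 3282 CPM in members and from 0 through 125 to 4874 CPM in other Sst nuclei. Among 6 immediate early genes in the test 0 were called, and 1, Dusp1, had an unadjusted p under 0.05 (adjusted p = 0.354); Fos was read in 23.2% of members and 15% of other Sst nuclei. The part of RNA quality and of recent activity in the calls was not tested.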

How the data were processed

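Single nuclei of mouse brain were sorted and amplified with SMART-Seq v4, as the labels' protocols state. What was deposited is a table of read counts for 32285 genes. Per the submitters' processing notes the aligner was STAR 2.7.2a and the build mm10; how reads were counted, with or without strand, is not given in the sources used here. Of 2501 columns, 904 match a sample of the series and were used, and 1597 were not. Gene IDs were matched to GENCODE M21 (32158 matched, 127 not, 52 sharing a symbol). Nuclei with 1000 genes and 10000 reads were kept (835); no doublet caller was run. Members, gene lists and tests were chosen with earlier results of these data known, so none of them is independent support for a pattern.

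Reads were summed per construct title and side for the 10 constructs that held 2 or more nuclei of each kind. In edgeR 4.0.16 low counts were removed with filterByExpr, TMM set the scaling, and the quasi-likelihood test was used (R 4.3.3), construct being the block, with Benjamini-Hochberg adjustment at 0.05 over all genes tested. SEs come from the F statistic, as |log2 fold change| over the root of F. Alternatives used DESeq2 1.42.0, limma 3.58.1 on mean log2(CPM + 1), other scalings, filters, blocks, pools and thresholds. The fit was also run on counts simulated without construct or pool effects. That run is not used as support for any call. Element position and correlations used permutation tests (scipy 1.17.1), and shares carry Clopper-Pearson 95% intervals. Folds against 0 reads set 3 reads over that side and are not lower bounds. Named genes were the 15 largest called changes in each direction with reads in at least 25% of the higher side and 1 direction in at least 3 of 4 constructs, the 2 smallest p and all called genes of each list, and a fixed set of markers, of which 1 is not reported here; genes outside this rule are named as seen afterwards or as members of a fixed list. A log2 fold change was printed for named genes with an unadjusted p under 0.05.

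The lists covered nitric oxide signalling, neuropeptides, peptide processing, peptide and monoamine receptors, GABAergic identity, striatal interneurons, other cortical Sst types, striatal projection, cortical excitatory, Pvalb, and Lamp5, Sncg and Vip neurons, glia and vascular cells, axon guidance, ion channels, glutamate and GABA receptors, cell adhesion, immediate early genes and mitochondrially encoded transcripts.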

Additional observations from a re-analysis of the deposited data

Results flagged for a closer look

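For 33 genes with values in 10 constructs, each construct's difference between members and other Sst nuclei, as log2(CPM + 1), was compared with the rest of the constructs. In 4 genes 1 construct lay apart by Dixon's criterion, and chance gives about 1 in 20 such cases. For 3 of them it was SYFP2-H2B-3xBORG-BC, which holds both members of pool S40317: Reln differed by -0.82 there (nearest other construct -6.89), Zeb2 by -0.64 (nearest -5.00), and Gabrg3 by 4.65 (nearest -1.32), against its direction in the other 9 constructs. Scg2 differed by 0.62 in 3xsmOPT-SYFP2-H2B-BC, where the nearest other construct was at 2.81.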

How the results depend on the processing

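The 45 calls (20 higher, 25 lower) moved in number with the method. DESeq2 called 1179 (159 higher, 1020 lower), limma 329 (114, 215), edgeR without the low-count filter 120 (44, 76), and with 1 nucleus per construct and side 184 (156 lower). Fewer were called with 3 nuclei per side (29, 7 lower), without pool S40325 (15: 7 higher, 8 lower), without S40327 (8: 5 higher, 3 lower), in S40327 alone (15: 6 higher, 9 lower) and with construct and pool as the block (12: 7 higher, 5 lower). Calls of lower genes also moved to 10 without a construct term, 13 at 50 CPM of Nos1 plus Chodl, 40 without the Slc17a7 limit on comparison nuclei, 6 in S40325 alone and 12 without nuclei holding Drd1 plus Drd2. Leaving out 1 construct gave 31 to 62 calls, 13 to 26 higher and 17 to 43 lower; the fewest came without SYFP2-H2B-3xsmOPT-BC and the most without SYFP2-H2B-3xBORG-BC. The cause was not tested. Each of the 45 genes kept its direction in all alternatives that tested it, and DESeq2 and limma called all 45. Lhx6, not called, had a log2 fold change of -1.64 without S40325 and -3.79 in S40327 alone, against 2.05. Of 18 named genes with an unadjusted p of 0.05 or more, 13 changed sign in some alternative. The position difference stayed negative, from -27.3 to -3.65 percentage points. The fits by pool, with construct and pool as the block, and without Drd1 or Drd2 nuclei were chosen after seeing the data. No paired analysis was possible because the replicate numbers in the titles only count nuclei under 1 title; the pairing used in the gene comparison is by construct, and that in the position test by element. Depth limits genes with few reads: a gene at 0 reads in a nucleus is not shown to be absent, and without molecular identifiers intervals cover counting error only.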
